A study of Homo sapiens with 7 samples.

Results

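The 41 genes described here encode proteins of ribosome biogenesis and of RNA polymerase I, and were taken as a named list matched by gene symbol to the rows of the deposited expression table. All 41 were among the 19775 genes listed, and all 41 passed the minimum mean of 10 that left 16351 genes for testing. By role the list held 5 genes of RNA polymerase I and its factors, 3 of the box C/D particles, 3 of the box H/ACA particles, 6 nucleolar proteins, the helicase DDX21, 9 factors of the small subunit and 14 of the large subunit. The rule used no measured value. Gene positions below are from GENCODE 29 on GRCh38. RNA came from wild-type H1 cells, a human embryonic stem cell line, grown in E8, a defined medium with FGF2, TGFβ, insulin, transferrin, ascorbic acid and selenite in DMEM/F12, to which antibiotics were added. XMD892, a kinase inhibitor that the title of the study ties to the kinase ERK5, was added to E8 at 1 µM. The groups were E8 without inhibitor, harvested at 48 h (n = 2), and XMD892 for 12 h (n = 1), 24 h (n = 2) and 48 h (n = 2). Because E8 cells were taken at 48 h only, exposure to XMD892 and time in culture cannot be told apart at 12 h and 24 h. The labels do not say that replicates came from separate cultures, so the p-values measure the spread between these libraries, which may be technical.

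Ribosomes are assembled in the nucleolus. RNA polymerase I copies the repeated ribosomal DNA into one long precursor, and small nucleolar ribonucleoproteins guide its methylation (box C/D particles) and pseudouridylation (box H/ACA particles). Assembly factors, helicases and nucleases then cut the precursor and fold it with ribosomal proteins into the small and the large subunit. The genes of these factors are transcribed by RNA polymerase II, and many are known targets of MYC, which binds the E-box CACGTG. Poly(A) RNA reports on these messengers and not on ribosomal RNA.

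The E-box was looked up because MYC is a known regulator of many such genes, and the sites of members described below are shown as 30 bases around it. CACGTG reads the same on both strands and was searched in the 300 bases from 250 before to 50 after each start site in RefSeq (GRCh38.p14). Of the 41 members 33 were matched in the promoter table, and 14 of these (42.4%) held the motif at a start site. It stood at a start site of 8.77% of all 27305 genes of that table and of 12.5% of the tested genes found in it. Counted over start sites, it was in 33.3% of the 42 member windows, in 7.26% of all 35116 windows and in 9.15% of the 16159 windows of tested genes. The motif is in capitals in the sequences below, which are given 5′ to 3′ on the strand of the gene.
NOP14: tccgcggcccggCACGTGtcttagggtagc
PES1: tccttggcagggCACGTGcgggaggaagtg
RRP9: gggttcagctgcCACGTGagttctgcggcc
FBL: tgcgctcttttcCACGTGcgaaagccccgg
GAR1: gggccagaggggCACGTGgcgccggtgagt
The NOP14 site lies at chr4:2963374-2963403 on the minus strand, and the E-box begins at base 16 of the RefSeq transcript. The PES1 site lies at chr22:30591880-30591909 on the minus strand, with the E-box from base 14. The RRP9 site lies at chr3:51941892-51941921 on the minus strand, and its E-box begins 5 bases before the start. The FBL site lies at chr19:39846356-39846385 on the minus strand (E-box from base 7), and the GAR1 site at chr4:109815781-109815810 on the plus strand (E-box from base 32). BYSL, DDX21, GNL3, LYAR, MRTO4, MYBBP1A, NOP2, UTP20 and WDR43 also held the motif. A match describes these letters and is not evidence of binding.

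The libraries held between 18528689 and 24148186 reads on the listed genes, and each value below is a normalised read count, that is a gene's reads divided by 1 factor per library. Counts were not divided by gene length, so levels are compared between libraries and not between genes. All 8 pluripotency markers were present, with a summed level of 163094 to 187306 in the XMD892 libraries and 174099 to 201749 in the E8 libraries. The sum rests mostly on POU5F1, LIN28A and DNMT3B, and 3 of the 8 lay lower in every XMD892 library than in both E8 libraries. NANOG had 3059 with 12 h, 3904 and 4138 with 24 h and 2552 and 3046 with 48 h of XMD892, against 6631 and 5818 in E8. TDGF1 had 6213 to 7791 with XMD892, against 11878 and 10254 in E8, and DPPA4 had 17726 to 20585, against 24610.4 and 20891 in E8. Of the markers of other cell types, 2 of 4 for neuroectoderm summed to 49.99 to 119 with XMD892 and 43.7 to 66.9 in E8. For mesoderm 3 of 4 summed to 33.3 to 70.2 over all 7 libraries, and 2 of 4 trophoblast markers summed to 71.9 to 133 with XMD892 and 162 to 196 in E8. The fibroblast pair COL1A1 and THY1 (2 of 4) summed to 5447 to 6906 over all libraries, but its genes differed. COL1A1 had 1534 with 12 h, 882 and 851 with 24 h and 361 and 324 with 48 h of XMD892, against 481 and 589 in E8, so that, like most members, it was highest at 12 h. THY1 had 3969.7 with 12 h, 5140.2 and 6055 with 24 h and 6093 and 5345 with 48 h of XMD892, against 4966 and 5811 in E8. The part of these marker differences in the results below was not tested. The other markers, among them all 4 for endoderm, were not analysed here. The 2 E8 libraries stood apart from each other along GC content. Over 16023 tested genes, the log2 difference of E8 replicate 1 minus replicate 2 had a Spearman correlation of -0.64 with transcript GC content, against -0.0012 between the 24 h replicates and 0.21 between the 48 h replicates. Over the 41 members it was -0.87, and E8 replicate 1 lay below replicate 2 for 28 of them. Since genes of a library share its depth and chemistry, these correlations are descriptions. Counts against E8 are therefore also given without each E8 library, and after a trend along GC content was removed from every library (the GC trend below).

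**Figure D1:**
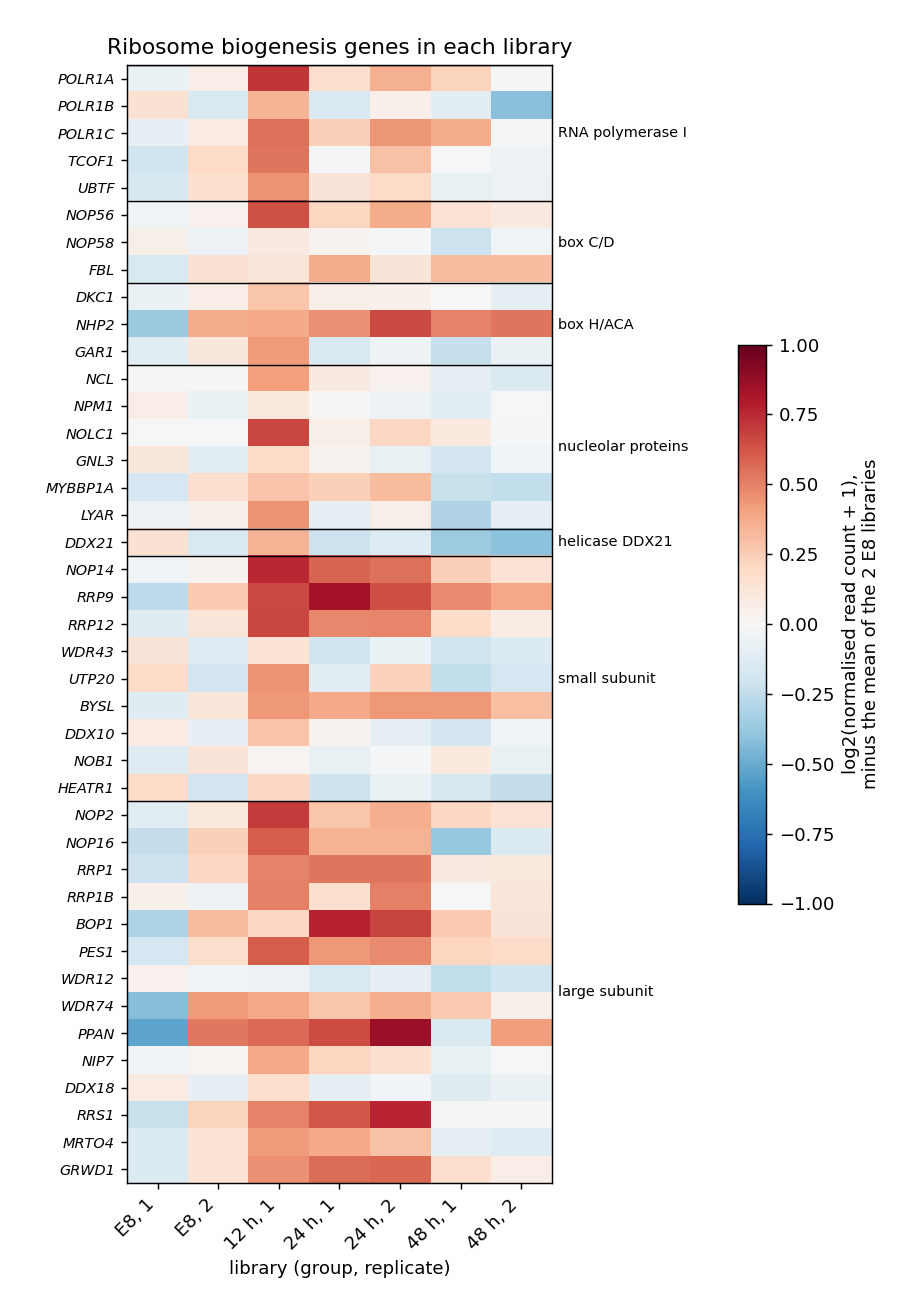
Heat map of the 41 members (rows, grouped by role) in each of the 7 libraries (columns, E8 first and then XMD892 by time). Colour gives log2(normalised read count + 1) minus the mean of the 2 E8 libraries. The 12 h column is red in nearly all rows and was the highest of the 7 libraries for 29 of 41 members, the red of 24 h is held by part of the rows, and 48 h lies on both sides of 0.

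After 12 h of XMD892 most of the 41 genes stood at their highest level. The 12 h library was the highest of all 7 for 29 of 41 members, and of 16.5% of all tested genes, while it was the lowest for 0 members. By limma on log2(value + 1) with Benjamini-Hochberg adjustment over all tested genes, 7 of 41 members (17.1%) were higher at 12 h than in E8 and 0 were lower, against 2.56% of all tested genes higher and 4.89% lower. The 7 were POLR1A, NOP56, NOLC1, NOP14, RRP12, NOP2 and PES1. The median log2 fold change of the 41 members was 0.43, with 40 above 0, and that of all tested genes was 0.02, with 52.1% above 0. The 12 h value stood above both E8 values in 36 members (87.8%) and in 37.1% of all tested genes. WDR12, a large-subunit factor, was the 1 member below both (35.5% of genes). The 12 h group is a single library, and the fit gives it the spread of the replicated groups. Without E8 replicate 1 the count was 9 higher (22%, against 4.21% of genes) and the median 0.32. Without E8 replicate 2 it was 25 higher (61%, against 10.3% of genes) and the median 0.54. With the GC trend removed 18 members (43.9%) were higher, against 6.73% of genes, with a median of 0.38. In a fit of the 12 h and E8 libraries alone, with 1 residual degree of freedom, 0 members passed. Genes outside the list did pass in that fit, and the number over all genes is given with the alternatives below. In such bulk RNA a change in the number of cells with a messenger and a change in its amount per cell cannot be told apart.

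Among the genes of RNA polymerase I, 1 of 5 rose at 12 h. POLR1A encodes the largest subunit of the enzyme and lies at chr2:86020216-86106155 (minus strand). POLR1A counted 2359.9 and 2577 in E8, 4050.2 with 12 h, 2770.0 and 3150.2 with 24 h and 2874 and 2432 with 48 h of XMD892. The 12 h value was the highest, and the 48 h values overlapped those of E8. At 12 h its log2 fold change was 0.72 ± 0.18 (SE, limma adjusted p = 0.017). POLR1B, the second-largest subunit, did not pass. POLR1B stood at 1608 and 1298 in E8, 1829 with 12 h, 1301 and 1494 with 24 h and 1333 and 1083 with 48 h of XMD892. Its log2 fold change at 12 h was 0.34 ± 0.20 (SE, limma adjusted p = 0.32), and no 24 h or 48 h value exceeded that of E8 replicate 1. POLR1C is a subunit shared with RNA polymerase III. POLR1C had normalised read counts of 351 and 392 in E8, 543 with 12 h, 438 and 504 with 24 h and 479 and 366 with 48 h of XMD892. The 12 h library was again the highest, and the log2 fold change was 0.55 ± 0.22 (SE, limma adjusted p = 0.13). TCOF1 encodes treacle, a nucleolar protein that works with UBTF in ribosomal DNA transcription and is mutated in Treacher Collins syndrome. TCOF1 counted 4258 and 5622 in E8, 7087 with 12 h, 4849.6 and 5989 with 24 h and 4879.9 and 4725 with 48 h of XMD892. With E8 libraries this far apart, the log2 fold change at 12 h was 0.53 ± 0.19 (SE, limma adjusted p = 0.09). UBTF is the factor that binds ribosomal DNA and loads the polymerase. UBTF stood at 3153 and 3950.4 in E8, 4825 with 12 h, 3865 and 4044 with 24 h and 3344 and 3381 with 48 h of XMD892. Its log2 fold change was 0.45 ± 0.18 (SE, limma adjusted p = 0.13). All 5 had their 12 h value above both E8 values, and with the GC trend removed POLR1A, TCOF1 and UBTF passed.

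Of the 3 box C/D proteins, NOP56 rose at 12 h and the other two did not pass. NOP56 is a core protein of the particles and lies at chr20:2652145-2658393 (plus strand), a gene with 5 snoRNA genes inside it. NOP56 had normalised read counts of 4999 and 5305 in E8, 7988 with 12 h, 5971 and 6654 with 24 h and 5703 and 5469.6 with 48 h of XMD892. The 12 h library was the highest and both E8 libraries were the lowest. At 12 h the log2 fold change of NOP56 was 0.63 ± 0.17 (SE, limma adjusted p = 0.024). NOP58 is its partner in the particle. NOP58 counted 2762 and 2540.0 in E8, 2824 with 12 h, 2712 and 2619.8 with 24 h and 2277 and 2582 with 48 h of XMD892. The log2 fold change at 12 h was 0.09 ± 0.17 (SE, limma adjusted p = 0.81). FBL encodes fibrillarin, the methyltransferase. FBL stood at 4832 and 5969.8 in E8, 5856 with 12 h, 6957 and 5881 with 24 h and 6694 and 6658 with 48 h of XMD892. The 12 h value lay between the E8 values, with 0.12 ± 0.18 (SE, limma adjusted p = 0.74) as the log2 fold change. None of the 3 box H/ACA genes passed at 12 h. DKC1 encodes dyskerin, the pseudouridine synthase. DKC1 had normalised read counts of 2717 and 2965 in E8, 3437 with 12 h, 2957 and 2943 with 24 h and 2831 and 2646 with 48 h of XMD892. Its log2 fold change was 0.28 ± 0.17 (SE, limma adjusted p = 0.36). GAR1 is a core protein of the same particle. GAR1 counted 587 and 689.9 in E8, 853 with 12 h, 574 and 615 with 24 h and 542 and 608 with 48 h of XMD892. The 12 h library was the highest and all later libraries lay below E8 replicate 2, with a 12 h log2 fold change of 0.42 ± 0.20 (SE, limma adjusted p = 0.21).

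Among the 6 nucleolar proteins, NOLC1 rose at 12 h. NOLC1 is a phosphoprotein that escorts small nucleolar particles, and lies at chr10:102152176-102163871 (plus strand). NOLC1 stood at 5335 and 5289.8 in E8, 8442 with 12 h, 5535 and 6142 with 24 h and 5695 and 5250.4 with 48 h of XMD892. Its 2 E8 values lay close together and the 12 h value far above every other library. NOLC1 had a 12 h log2 fold change of 0.67 ± 0.17 (SE, limma adjusted p = 0.017). NCL encodes nucleolin, which binds nascent ribosomal RNA. NCL had normalised read counts of 27747 and 28055 in E8, 37069.8 with 12 h, 29766 and 28820.0 with 24 h and 26125 and 25223 with 48 h of XMD892. The 12 h library stood apart here too, but the log2 fold change of 0.41 ± 0.17 (SE, limma adjusted p = 0.15) did not pass. NPM1 encodes nucleophosmin, a nucleolar chaperone. NPM1 counted 43843 and 39854 in E8, 44859.9 with 12 h, 42157 and 40409 with 24 h and 38660.0 and 41675 with 48 h of XMD892. Its log2 fold change was 0.10 ± 0.18 (SE, limma adjusted p = 0.79). LYAR, MYBBP1A and GNL3 had log2 fold changes of 0.45, 0.28 and 0.19 at 12 h and did not pass by limma. DDX21, an RNA helicase that acts in both polymerase I transcription and snoRNA-guided processing, had normalised read counts of 8174 and 6612 in E8, 9324 with 12 h, 6319 and 6713 with 24 h and 5723 and 5517 with 48 h of XMD892. The 12 h value was the highest and the 48 h values the lowest, with a 12 h log2 fold change of 0.34 ± 0.18 (SE, limma adjusted p = 0.26).

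Of the subunit assembly factors, 2 of 9 for the small subunit and 2 of 14 for the large subunit rose at 12 h. NOP14, a protein of the small-subunit processome, had the highest log2 fold change of the 41 members at 12 h and lies at chr4:2937933-2963385 (minus strand). It stayed the highest without E8 replicate 1 (0.71). Without E8 replicate 2 it ranked 7 of the 41 (0.79), and PPAN was highest (1.09). NOP14 stood at 1022 and 1077 in E8, 1767 with 12 h, 1567 and 1536 with 24 h and 1238 and 1161 with 48 h of XMD892. All XMD892 values of NOP14, those at 48 h included, lay above both E8 values. The 12 h log2 fold change was 0.75 ± 0.18 (SE, limma adjusted p = 0.012). RRP12 takes part in processing and export of the small-subunit precursor, and lies at chr10:97356358-97426076 (minus strand). RRP12 had normalised read counts of 1545 and 1832 in E8, 2673 with 12 h, 2342 and 2357 with 24 h and 1909 and 1771 with 48 h of XMD892. Its 12 h log2 fold change was 0.67 ± 0.18 (SE, limma adjusted p = 0.025). NOP2, a methyltransferase of large-subunit ribosomal RNA, lies at chr12:6556863-6568691 (minus strand). NOP2 counted 1180.4 and 1370.0 in E8, 2064 with 12 h, 1540.2 and 1634 with 24 h and 1472 and 1404 with 48 h of XMD892. The 12 h value stood above all others, and the log2 fold change was 0.70 ± 0.18 (SE, limma adjusted p = 0.02). PES1, with BOP1 and WDR12 a member of the PeBoW complex of large-subunit maturation, lies at chr22:30576625-30607083 (minus strand). PES1 stood at 2217 and 2828 in E8, 3800.0 with 12 h, 3379 and 3472 with 24 h and 2902 and 2866 with 48 h of XMD892. The 12 h log2 fold change was 0.60 ± 0.18 (SE, limma adjusted p = 0.045), and it did not pass without E8 replicate 1 (0.43, limma adjusted p = 0.059) or without any 1 of the 24 h and 48 h libraries (limma adjusted p between 0.066 and 0.076). The E8 values of PES1 were themselves far apart. BOP1 and WDR12 had 12 h log2 fold changes of 0.21 and -0.06, and neither passed by limma. The other 17 assembly factors had log2 fold changes between 0.02 (NOB1) and 0.66 (RRP9) and did not pass. Exons of NOP14, RRP12, PES1 and NHP2 overlap those of a gene on the opposite strand (NOP14-AS1, AL355490.2, TCN2 and RMND5B), as do those of 15 members in all. The strand setting of the counting is not given in the sources used here, so reads of such pairs cannot be told apart.

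**Figure D2:**
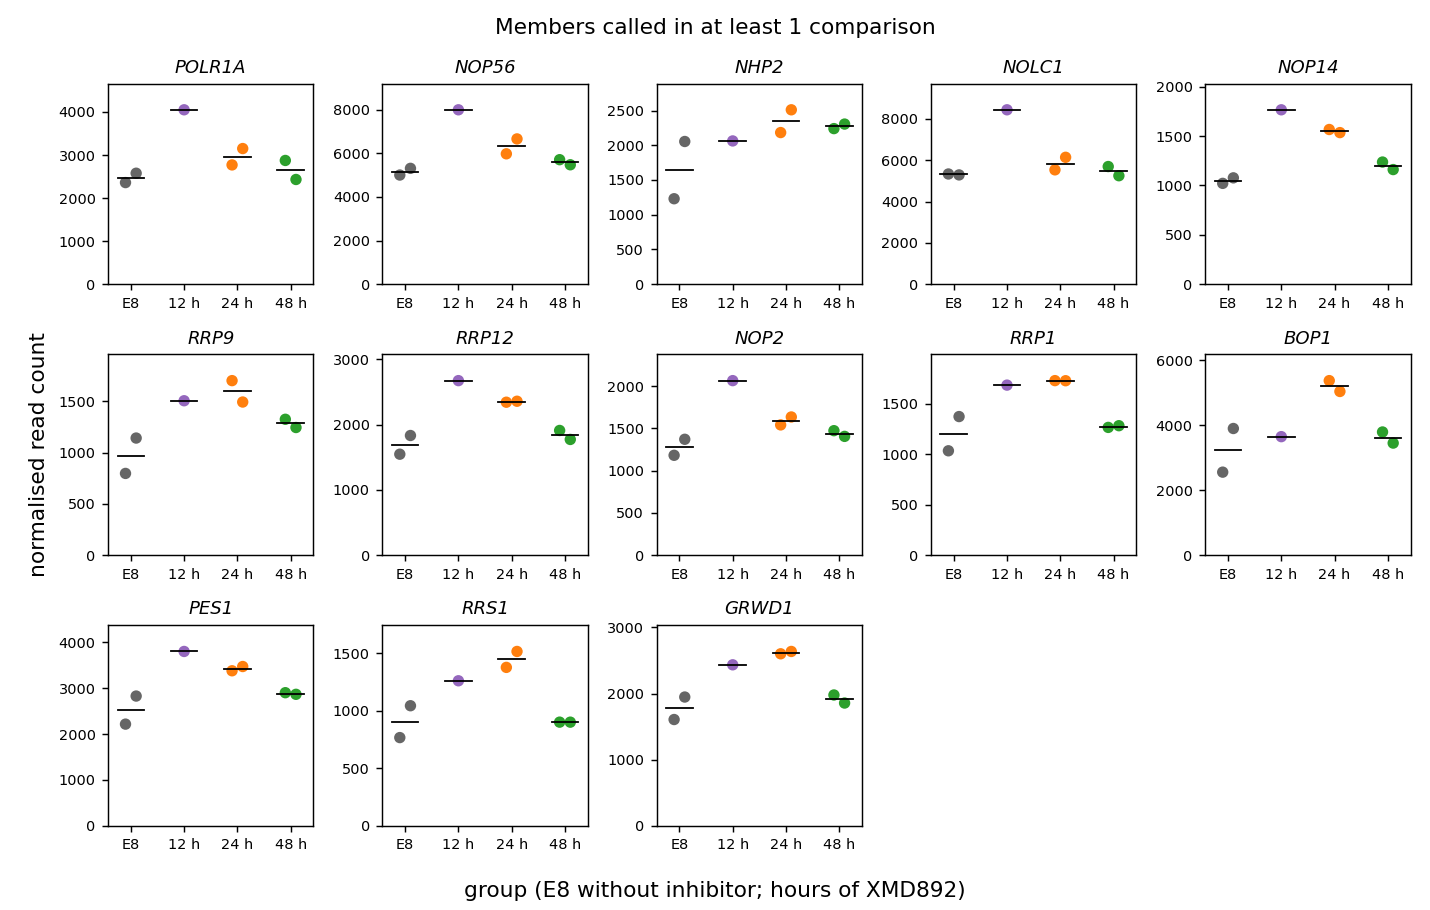
Normalised read count of the 13 members called in at least 1 comparison, by group (E8, then 12, 24 and 48 h of XMD892). Points are libraries and lines are group means, and each axis starts at 0. NOLC1 and NOP2 peak in the 12 h library, whereas BOP1 and RRS1 are highest at 24 h, and in BOP1, NHP2 and RRP9 the 2 E8 points lie far apart.

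After 24 h of XMD892 the members higher than in E8 were mostly assembly factors of the 2 subunits. Of them NOP14, RRP12 and PES1 were also called at 12 h, in a comparison with the same E8 libraries. By limma 9 of 41 members (22%) were higher at 24 h and 0 were lower, against 8.66% of all tested genes higher and 7.56% lower. They were NHP2 of the box H/ACA particles, 3 of 9 small-subunit factors (RRP9, NOP14 and RRP12) and 5 of 14 large-subunit factors (BOP1, RRS1, GRWD1, RRP1 and PES1). None of the 5 genes of RNA polymerase I, the 3 of box C/D or the 6 nucleolar proteins passed. The median log2 fold change of the members was 0.25, with 29 above 0, and that of all tested genes was 0.01, with 50.8% above 0. In 22 members (53.7%) both 24 h libraries stood above both E8 libraries, against 29.8% of genes. The count without E8 replicate 1 was 5 (RRP9, NOP14, RRS1, BOP1 and GRWD1), or 12.2% against 4.77% of genes, and the median 0.11. Without E8 replicate 2 it was 18 (43.9%, against 17.7% of genes) and the median 0.33. Without 24 h replicate 1 it was 3 (NHP2, RRS1 and BOP1), or 7.32% against 3.22% of genes. Without 24 h replicate 2 it was 2 (RRP9 and BOP1), or 4.88% against 5.26% of genes, where the fit gives the lone library the spread of the others. With the GC trend removed 6 members (14.6%) were higher, against 9.18% of genes, and the median was 0.16.

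RRP9, a protein of the U3 small nucleolar particle that acts in the first cuts of the precursor, lies at chr3:51933430-51941941 (minus strand). RRP9 had normalised read counts of 797 and 1143 in E8, 1507 with 12 h, 1704 and 1495 with 24 h and 1326 and 1246 with 48 h of XMD892. Both 24 h values stood above both E8 values, which differ widely. The log2 fold change at 24 h was 0.74 ± 0.17 (SE, limma adjusted p = 0.0051), and 0.49, limma adjusted p = 0.0051, with the GC trend removed. It was 0.48 without E8 replicate 1 (limma adjusted p = 0.025). NOP14 had a 24 h log2 fold change of 0.56 ± 0.15 (SE, limma adjusted p = 0.012), and 0.51, limma adjusted p = 0.0022, with the GC trend removed. RRP12 had 0.48 ± 0.15 (SE, limma adjusted p = 0.028), a call that 7 of the 20 alternatives did not give. The other 6 small-subunit factors did not pass at 24 h. BYSL, needed for small-subunit maturation, had normalised read counts of 746 and 879 in E8, 1096 with 12 h, 1052 and 1092 with 24 h and 1095 and 999 with 48 h of XMD892. The 24 h log2 fold change was 0.40 ± 0.15 (SE, limma adjusted p = 0.079). NOB1, the nuclease of the last cut of the small-subunit RNA, had a log2 fold change of -0.05, and HEATR1, UTP20, WDR43 and DDX10 lay between -0.14 and 0.06 without passing by limma.

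BOP1, the second protein of the PeBoW complex, lies at chr8:144262102-144291370 (minus strand). BOP1 counted 2555 and 3900.0 in E8, 3649 with 12 h, 5376 and 5041 with 24 h and 3792 and 3450.4 with 48 h of XMD892. Both 24 h values were above every other library, and the 12 h value lay below E8 replicate 2. The log2 fold change at 24 h was 0.72 ± 0.17 (SE, limma adjusted p = 0.0057), and 0.40, limma adjusted p = 0.012, with the GC trend removed. The value without E8 replicate 1 was 0.42 (limma adjusted p = 0.035). RRS1, which helps to dock a small ribonucleoprotein on the large-subunit precursor, lies at chr8:66429028-66430733 (plus strand). RRS1 stood at 767 and 1044 in E8, 1261 with 12 h, 1378 and 1516 with 24 h and 902 and 902 with 48 h of XMD892. The 24 h libraries were the highest, and the 48 h libraries lay between the E8 libraries. Its 24 h log2 fold change was 0.69 ± 0.16 (SE, limma adjusted p = 0.0067), and 0.53, limma adjusted p = 0.0038, with the GC trend removed. GRWD1, related to the yeast chaperone of a large-subunit protein, lies at chr19:48445773-48457022 (plus strand). GRWD1 had normalised read counts of 1608 and 1948 in E8, 2436 with 12 h, 2602 and 2638 with 24 h and 1979 and 1858 with 48 h of XMD892. All 3 libraries of 12 h and 24 h exceeded the other 4, and the log2 fold change at 24 h was 0.57 ± 0.15 (SE, limma adjusted p = 0.012). RRP1, a nucleolar protein of large-subunit processing, lies at chr21:43789513-43805293 (plus strand). RRP1 counted 1032 and 1371 in E8, 1682 with 12 h, 1727 and 1726 with 24 h and 1263 and 1280.4 with 48 h of XMD892. The 24 h values were nearly equal and above both E8 values, with a log2 fold change of 0.54 ± 0.16 (SE, limma adjusted p = 0.023). For RRP1 the value without E8 replicate 1 was 0.33 (limma adjusted p = 0.12). PES1 had a 24 h log2 fold change of 0.45 ± 0.15 (SE, limma adjusted p = 0.041), and did not pass with the GC trend removed (0.25, limma adjusted p = 0.065) or without E8 replicate 1 (0.28, limma adjusted p = 0.18).

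NHP2, the third box H/ACA protein described here, lies at chr5:178149460-178153967 (minus strand). NHP2 stood at 1230.2 and 2054 in E8, 2062 with 12 h, 2183 and 2510.4 with 24 h and 2239.6 and 2305 with 48 h of XMD892. E8 replicate 1 stood far below the other 6 libraries, and E8 replicate 2 lay at the level of the 12 h library. The 24 h log2 fold change was 0.56 ± 0.18 (SE, limma adjusted p = 0.041). Without E8 replicate 1 it was 0.19 (limma adjusted p = 0.42), and with the GC trend removed it was 0.38, limma adjusted p = 0.056. PPAN, a large-subunit factor whose exons are shared with the read-through gene PPAN-P2RY11, had the highest log2 fold change of the members at 24 h but did not pass. PPAN had normalised read counts of 59.4 and 124 in E8, 128 with 12 h, 135 and 156 with 24 h and 77.7 and 115 with 48 h of XMD892. Its reads were the fewest of the list, its E8 values differed widely, and the log2 fold change was 0.75 ± 0.29 (SE, limma adjusted p = 0.081). The genes of the polymerase had 24 h log2 fold changes of 0.26 ± 0.15 (SE, limma adjusted p = 0.24) for POLR1A and 0.34 ± 0.18 (SE, limma adjusted p = 0.2) for POLR1C. UBTF, TCOF1 and POLR1B had 0.16, 0.14 and -0.05. NOP56 had 0.29 ± 0.14 (SE, limma adjusted p = 0.16) and FBL 0.25 ± 0.15 (SE, limma adjusted p = 0.26). NOLC1, called at 12 h, had 0.13 ± 0.14 (SE, limma adjusted p = 0.55) at 24 h.

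**Figure D3:**
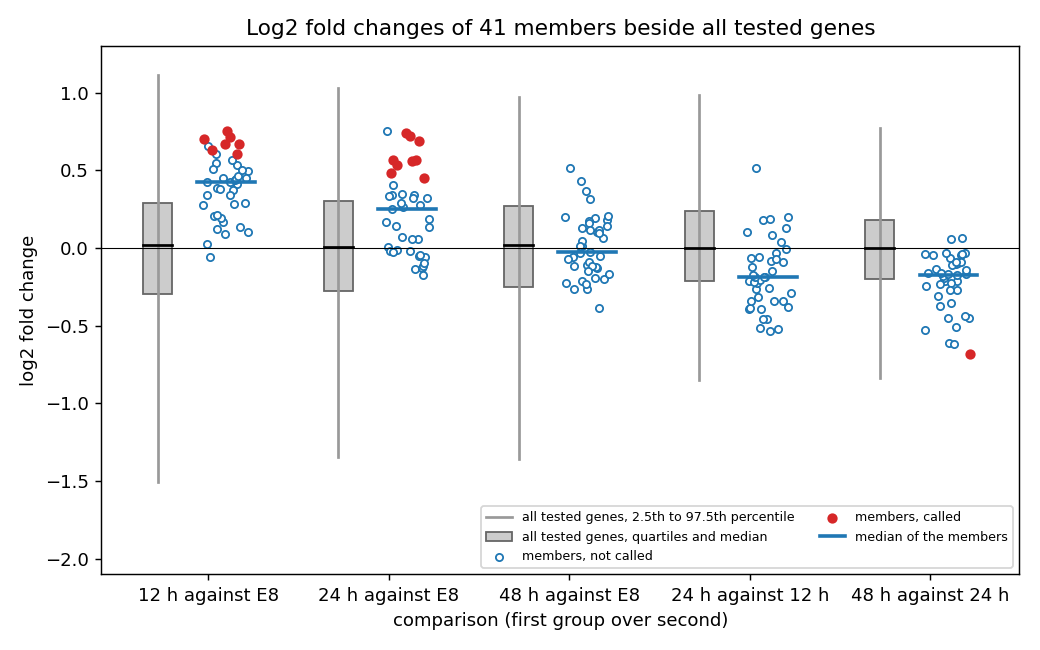
Log2 fold changes of the 41 members (points, red where called by limma) in 5 comparisons, beside all 16351 tested genes (grey box from the first to the last quartile with its median, whiskers over the central 95%). Blue lines are the members' medians, 0.43 at 12 h, 0.25 at 24 h and -0.03 at 48 h against E8, and -0.17 for 48 h against 24 h. The comparisons with E8 share the same 2 E8 libraries.

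After 48 h of XMD892 no member was called against E8, the comparison in which both groups were harvested at the same time. By limma 0 of 41 members were higher and 0 lower, against 5.08% and 6.45% of all tested genes. At an unadjusted limma p under 0.05 there were 5 (RRP9, NHP2, BYSL and FBL above E8 and DDX21 below), or 12.2% against 26.7% of genes, and edgeR and DESeq2 on recovered reads called 0 members, against 11.4% and 9.55% of genes. The members lay on both sides of 0, with 20 above it and a median log2 fold change of -0.03, while 52% of all tested genes lay above 0 with a median of 0.02. NHP2 had the highest value, 0.51 ± 0.18 (SE, limma adjusted p = 0.071), with a 95% interval of 0.13 to 0.89. It was 0.15 (limma adjusted p = 0.58) without E8 replicate 1, where BYSL, RRP9, FBL and NOP14 lay above it, and 0.88 (limma adjusted p = 1.1e-05) without E8 replicate 2. Without either 24 h library NHP2 was called (limma adjusted p = 0.043). RRP9 followed with 0.43 ± 0.17 (SE, limma adjusted p = 0.1). DDX21 had the lowest, -0.39 ± 0.14 (SE, limma adjusted p = 0.083), with an interval of -0.69 to -0.09, and its 48 h values of 5723 and 5517 lay below both E8 values of 8174 and 6612. The value of DDX21 without E8 replicate 1 was -0.23 (limma adjusted p = 0.28), and NOP16 and MYBBP1A were among the members below it. For POLR1A the log2 fold change was 0.10 ± 0.15 (SE, limma adjusted p = 0.72) with an interval of -0.20 to 0.41, for NOP14 0.19 ± 0.15 (SE, limma adjusted p = 0.43), for NCL -0.12 ± 0.14 (SE, limma adjusted p = 0.63) and for NPM1 -0.06 ± 0.14 (SE, limma adjusted p = 0.84). These intervals do not show that the levels are equal. Without E8 replicate 1, 2 members were lower (NOP16 and MYBBP1A), or 4.88% against 6.17% of genes, and 0 were higher. Without E8 replicate 2, 7 were higher (17.1%, against 14.6% of genes) and 4 lower (9.76%, against 10.2%), shares near those of all genes. With the GC trend removed DDX21 (-0.32, limma adjusted p = 0.035) and MYBBP1A (-0.37, limma adjusted p = 0.013) were lower, against 10.7% of genes.

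Most members had lower values at 48 h than at 24 h of XMD892, and 1 of them passed the test. For 48 h against 24 h, 2 groups that share no library, 39 of 41 log2 fold changes were below 0, with a median of -0.17, and 49.4% of all tested genes were above 0 with a median of -0.0031. In 25 members (61%) both 48 h libraries lay below both 24 h libraries, against 25.2% of genes, and in 0 members above, against 23.7%. By limma 1 member was lower and 0 higher, against 0.856% and 0.349% of all tested genes. That member was RRS1, with 902 and 902 at 48 h and 1378 and 1516 at 24 h. Its log2 fold change of 48 h over 24 h was -0.68 ± 0.16 (SE, limma adjusted p = 0.042), and -0.64, limma adjusted p = 0.0056, with the GC trend removed. The call was lost without any 1 of the 4 libraries concerned (limma adjusted p between 0.14 and 0.37) and under TMM rescaling (0.051). NOP16, a large-subunit factor, had normalised read counts of 628 and 872 in E8, 1124 with 12 h, 942 and 939 with 24 h and 568 and 667 with 48 h of XMD892. Its log2 fold change of 48 h over 24 h was -0.61 ± 0.17 (SE, limma adjusted p = 0.095). BOP1 had -0.53 ± 0.17 (SE, limma adjusted p = 0.15) and MYBBP1A, a nucleolar regulator of transcription, -0.51 ± 0.15 (SE, limma adjusted p = 0.1). With the GC trend removed 5 members passed as lower (MRTO4, NOP14, NOP16, RRS1 and MYBBP1A), against 1.62% of genes. The E8 libraries enter this comparison through the estimate of spread, and without either of them 9 members (22%) were lower, against 4.2% of genes without replicate 1 and 4.11% without replicate 2. All 14 large-subunit factors lay below 0 in this comparison, with a median of -0.35. FBL and NOB1 were the 2 members above 0, at 0.06 each.

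For 24 h against the single 12 h library, 0 members were called, against 0.391% of all tested genes in either direction, and 7 had an unadjusted limma p under 0.05 (17.1%, against 10.7% of genes). edgeR and DESeq2 also called 0, against 0.318% and 0.728% of genes. A fit of the 24 h and 12 h libraries alone did call members, so the absence of calls depends on the fit. Its counts over members and over all genes are given with the alternatives below. The median log2 fold change was -0.19 and 33 of 41 members were below 0, while 49.6% of all tested genes were above it. Without E8 replicate 1 or replicate 2 in the fit, 4 members (1 higher and 3 lower) or 3 (1 higher and 2 lower) passed, that is 9.76% or 7.32%, against 4.49% or 4.34% of genes. NOLC1 had -0.53 ± 0.17 (SE, limma adjusted p = 0.2) and POLR1A -0.46 ± 0.18 (SE, limma adjusted p = 0.35), while BOP1 had 0.51 ± 0.20 (SE, limma adjusted p = 0.35). All 5 genes of the polymerase and all 6 nucleolar proteins lay below 0, and 5 of 14 large-subunit factors above. This comparison shares the 12 h library with that of 12 h against E8, and the 24 h libraries with that of 48 h against 24 h.

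**Figure D4:**
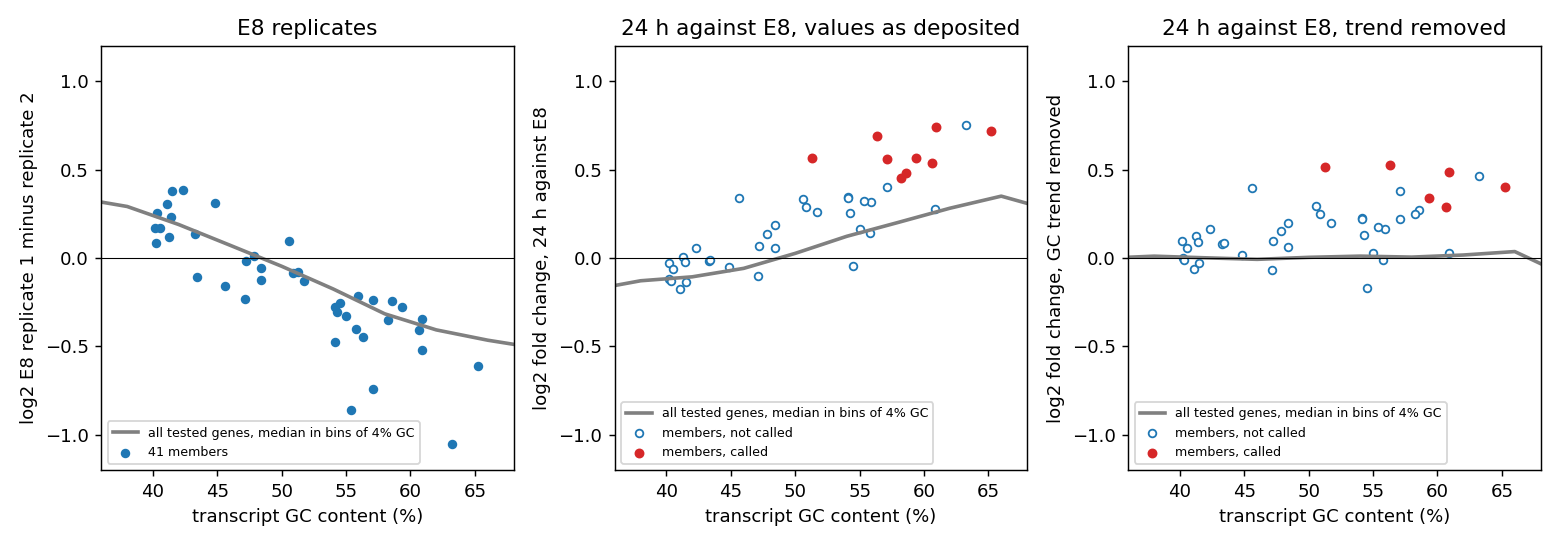
Transcript GC content (x axis, percent) of the 41 members against the log2 difference between the E8 replicates (left), the log2 fold change at 24 h as deposited (middle) and with the GC trend removed (right). Grey lines are medians of all tested genes in bins of 4% GC and red points are called members. The members follow the slope between the E8 replicates, and at 24 h all 9 called members lie at 51.3% GC or above.

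The members spanned 40.2% to 65.2% transcript GC with a median of 51.3%, against a median of 48.6% over all tested genes. The Spearman correlation of the 24 h log2 fold change with GC content was 0.84 over the 41 members and 0.31 over 16023 genes, and 0.57 and -0.00030 after the trend was removed. At 12 h it was 0.46 over the members and 0.054 over all genes, and 0.37 and 0.0070 after the trend was removed. At 48 h these values were 0.65 and 0.19, and 0.36 and 0.0050 after it was removed. These are correlations across genes that share libraries, given as descriptions. The 23 members of 50% GC or more had a median log2 fold change of 0.35 at 24 h and held all 9 calls. The 18 members under 50% had a median of -0.02 at 24 h and held 0 calls. All tested genes showed a like rise with GC content at 24 h. Their median log2 fold changes by GC bin were -0.13 at 38%, -0.11 at 42% and -0.06 at 46%. They were 0.03 at 50%, 0.12 at 54%, 0.20 at 58%, 0.28 at 62% and 0.35 at 66%. The split is therefore not particular to the members. Shares of all genes called by GC class were not computed, so these 9 and 0 calls are not read against other genes. At 12 h the medians were 0.50 in the GC-rich members and 0.31 in the others, so both lay above the 0.02 of all genes. With the trend removed, RRP9, NOP14, RRS1, BOP1, GRWD1 and RRP1 were still higher at 24 h, and NHP2, RRP12 and PES1 did not pass. How much of the 24 h difference comes from the GC difference between the E8 libraries was not tested beyond these values.

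**Figure D5:**
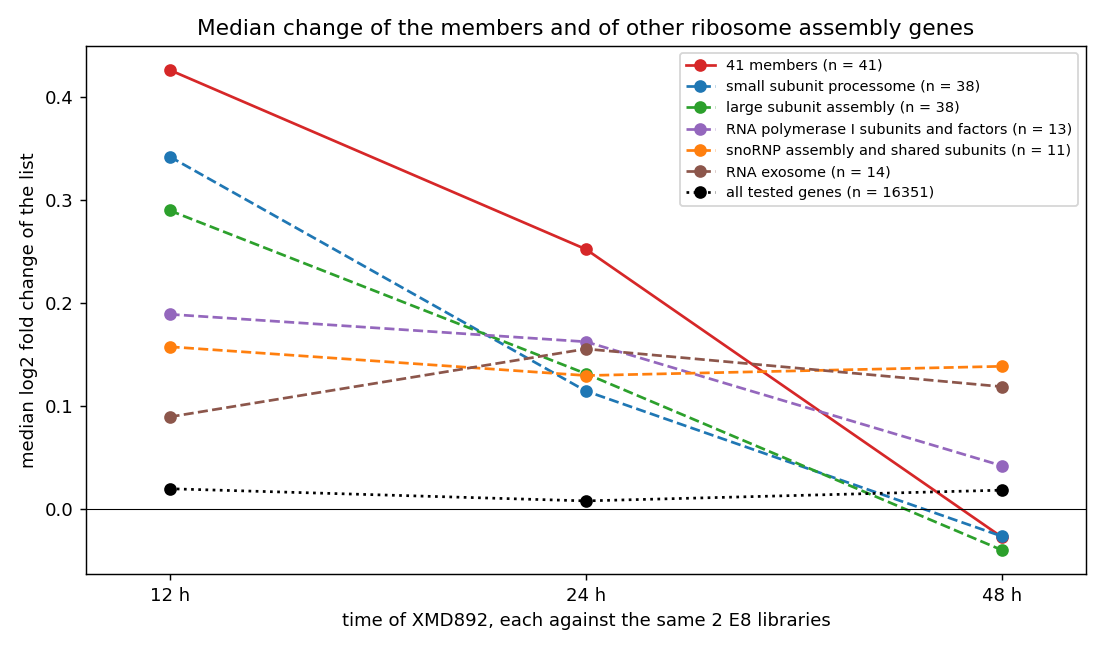
Median log2 fold change (y axis) of the 41 members and of 5 lists of other ribosome assembly genes at 12, 24 and 48 h of XMD892 (x axis), each against the same 2 E8 libraries. Lines join the 3 medians of a list and the dotted line is the median of all 16351 tested genes. The members and the 2 subunit lists are highest at 12 h and slightly below 0 at 48 h.

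Other genes of the pathway, from lists that do not overlap the members, had lower medians at 12 h than the members. Among all tested genes, limma called 2.56% higher after 12 h, 8.66% after 24 h and 5.08% after 48 h. The shares called lower were 4.89%, 7.56% and 6.45% in the same order. The 24 h counts of higher genes in both subunit lists and the snoRNP list below did not exceed the 8.66%. Those of the polymerase and exosome lists did, with few genes each. Of 38 tested genes of small-subunit assembly (39 listed), 4 rose at 12 h (RIOK1, NOL6, BMS1 and AATF), 3 at 24 h (IMP4, NOL6 and DDX49) and 0 at 48 h, and 0 fell. Their median log2 fold changes were 0.34, 0.11 and -0.03. Of 38 genes of large-subunit assembly, FTSJ3 rose and MDN1 fell at 12 h, NOC2L, SURF6 and DDX51 rose and MDN1 fell at 24 h, and MDN1 alone fell at 48 h, with medians of 0.29, 0.13 and -0.04. MDN1 encodes midasin, the large ATPase that strips assembly factors from the large-subunit precursor. MDN1 counted 10445 and 10447 in E8, 6681 with 12 h, 5288 and 6525 with 24 h and 6933 and 5280.2 with 48 h of XMD892. All 5 XMD892 libraries lay below both E8 libraries. The log2 fold change at 48 h was -0.79 ± 0.15 (SE, limma adjusted p = 0.0018). Of 13 further subunits and factors of RNA polymerase I, TAF1C, of the promoter selectivity complex, and SIRT7, a deacetylase that acts on the polymerase, rose at 24 h. None of the 13 passed at 12 h or 48 h, and the medians were 0.19, 0.16 and 0.04. None of 11 genes of snoRNP assembly passed at any time, with medians of 0.16, 0.13 and 0.14. Of 14 genes of the RNA exosome, which trims the precursor, EXOSC3 rose at 12 h, EXOSC3, EXOSC4 and EXOSC6 at 24 h and EXOSC4 at 48 h. The medians were 0.09, 0.16 and 0.12. EXOSC4 stood at 369 and 473 in E8, 595 with 12 h, 808 and 765 with 24 h and 611 and 618 with 48 h of XMD892. All 5 XMD892 values were above both E8 values. The 48 h log2 fold change of EXOSC4 was 0.55 ± 0.17 (SE, limma adjusted p = 0.035).

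Calls were counted for members with and without the E-box. Of the 14 members with the E-box 4 were called at 12 h or 24 h (NOP14, NOP2, PES1 and RRP9), and of the 19 matched members without it 5 were called. The median log2 fold changes of members with and without the motif were 0.43 and 0.39 at 12 h. The same medians were 0.27 and 0.19 for 24 h and -0.11 and -0.04 for 48 h. In all, 13 of the 41 members were called in at least 1 comparison and 28 in none. Neither this count nor those by E-box has a share of all tested genes beside it, so they are not read against other genes. The 28 are POLR1B, POLR1C, TCOF1 and UBTF of the polymerase, NOP58, FBL, DKC1 and GAR1 of the snoRNA particles, NCL, NPM1, GNL3, MYBBP1A and LYAR of the nucleolus and DDX21. Among the assembly factors they are WDR43, UTP20, BYSL, DDX10, NOB1 and HEATR1 for the small subunit and NOP16, RRP1B, WDR12, WDR74, PPAN, NIP7, DDX18 and MRTO4 for the large subunit.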

How the data were processed

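Poly(A) RNA of 7 H1 libraries was read as paired ends on a NextSeq instrument, per the labels' protocols. The submitters' processing notes name Trimmomatic 0.36, STAR, featureCounts 1.5.3, DESeq2 1.26.0 and hg38. The annotation, strand setting and filters are not given in the sources used here. The deposited signal is a normalised read count per gene symbol, in which the authors scaled the reads of each library by its own factor. Dividing each value by its library's smallest step gave whole reads within 0.1 for 100% of values. The 2 further columns of the table match no sample and were not used. Read totals cover listed genes only. They ranged from 18528689 to 24148186.

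Genes with a mean of 10 or more (16351) were tested on log2(value + 1) with limma 3.58.1 (R 4.3.3), with 1 mean per group over all 7 libraries, trended prior variance, 3 residual and 18.4 prior degrees of freedom. Benjamini-Hochberg adjustment ran over every tested gene, and adjusted p under 0.05 was the call. Fold changes on this scale slightly understate those of low genes. The fit was tested on simulated data. Alternatives were pseudocounts of 0.5 and 5, no filter and a filter at 50, TMM and same-total rescaling, edgeR 4.0.16 and DESeq2 1.42.0 on recovered reads, robust moderation, a fit of the compared groups only, the replicate number as a block, removal of each library's GC trend (loess, span 0.3, 16023 genes with GC content of the longest GENCODE 29 transcript), and leaving out each replicate. Symbols were matched to GENCODE 29 for 97.7% of genes.

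The members, the other pathway lists and the tests were chosen with earlier results of these data known. Values per library are given for 13 named members (POLR1A, POLR1B, POLR1C, TCOF1, UBTF, FBL, NOP56, NOP58, DKC1, NHP2, GAR1, NCL and NPM1) and for called members with non-overlapping libraries, up to 8 each way at 24 h and 48 h and 4 at 12 h and between times. From the other lists at most 2 genes called each way at 48 h are given with values. PES1, DDX21, BYSL, NOP16, PPAN and MYBBP1A were added after their values were seen.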

Additional observations from a re-analysis of the deposited data

Results flagged for a closer look

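RRS1 was singled out because limma called it in the comparison of 48 h with 24 h of XMD892. Relative to the same E8 libraries its log2 fold change was 0.69 at 24 h, where limma called it higher, and 0.01 at 48 h. The comparison that selected it, 48 h over 24 h, gave a log2 fold change of -0.68 ± 0.16 (SE, limma adjusted p = 0.042). Both 48 h libraries lay below both 24 h libraries. Since the selection used this p-value, it is no separate support. RRS1 was the 1 member of 41 to pass in that comparison, where 0.856% of all tested genes were lower. The call was lost under 5 of the 20 alternatives, namely TMM rescaling and leaving out any 1 of the 24 h or 48 h libraries.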

How the results depend on the processing

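Each of 53 named values was recomputed under 20 alternatives. Of the 17 called values 0 reversed, and each lost its call under at least 1 alternative, PES1 at 24 h under 11 and NHP2 at 24 h under 10. The fit of the compared groups only called 0 members at 12 h, 1 at 48 h, 12 for 24 h against 12 h and 9 for 48 h against 24 h, and over all genes 804 at 12 h, 1457 for 24 h against 12 h and 1043 for 48 h against 24 h. With the GC trend removed, the members called were 18 at 12 h, 2 at 48 h and 5 for 48 h against 24 h, and the genes 2539, 3078 and 430. With the trend and E8 replicate 1 removed, they were 13 at 12 h, 4 at 24 h, 1 at 48 h, 1 for 24 h against 12 h and 6 for 48 h against 24 h, and the genes 1852 at 12 h, 233 for 24 h against 12 h and 690 for 48 h against 24 h. With the trend and E8 replicate 2 removed, the members were 18 at 12 h, 3 at 48 h, 1 for 24 h against 12 h and 6 for 48 h against 24 h, and the genes 2569 at 12 h, 3015 at 48 h, 240.0 for 24 h against 12 h and 717 for 48 h against 24 h. For 48 h against 24 h, TMM rescaling called 0 members and DESeq2 2. For 24 h against 12 h, DESeq2 called 0 members and 119 genes. The cause of these differences was not tested. Replicates with the same number did not deviate together (correlations of -0.035, -0.048 and -0.071). The titles give only a replicate number, so whether the numbers pair samples is not known. These correlations cannot settle it, since the E8 libraries also differ along GC content. The replicate block called 10 members at 12 h, 9 at 24 h, 1 at 48 h (NHP2), 0 for 24 h against 12 h and 1 for 48 h against 24 h. Where a member count in this paragraph has no count over all genes beside it, it is not read against the other genes.

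Leaving out 1 library gave 6 to 25 members at 12 h, 2 to 18 at 24 h, 0 to 11 at 48 h, 0 to 4 for 24 h against 12 h and 0 to 9 for 48 h against 24 h. Over all genes the ranges were 1021 to 2941, 1105 to 4917, 791 to 4057, 31 to 734 and 64 to 1045. Uncalled log2 fold changes near 0 changed sign. With the GC trend removed, the 24 h values were 0.020 for POLR1B, -0.013 for TCOF1 and 0.078 for NPM1. Without E8 replicate 1 as well they were 0.12 for POLR1B, -0.094 for TCOF1, 0.072 for NPM1 and -0.027 for UBTF, and -0.0027 for FBL at 12 h. Without E8 replicate 2 instead they were 0.058 for GAR1 and 0.077 for NPM1. NOP58 at 24 h had -0.0054 with the same total, -0.00057 by edgeR and -0.0015 by DESeq2. With 1 library left out, FBL at 12 h ranged from -0.028 to 0.28. The 24 h ranges were -0.21 to 0.10 for POLR1B, -0.052 to 0.070 for NOP58, -0.22 to 0.017 for GAR1, -0.061 to 0.34 for TCOF1, -0.087 to 0.050 for NPM1 and -0.0073 to 0.12 for DKC1. At 48 h they were -0.020 to 0.22 for POLR1A, -0.23 to 0.17 for TCOF1, -0.13 to 0.010 for NPM1, -0.019 to 0.37 for POLR1C, -0.12 to 0.011 for DKC1 and -0.23 to 0.093 for UBTF. Of the members PPAN had the fewest reads.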
